A study of Ovis aries with 15 samples.

Results

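The regions described here are the H3K27ac regions of sheep perirenal fat that overlap H3K4me3 and do not overlap H3K27me3. They were chosen by position alone. An H3K27ac region on chromosomes 1 to 26 was taken when it shared at least 1 bp with a region of the H3K4me3 table and no base with a region of the H3K27me3 table. Of the 86246 H3K27ac regions on these chromosomes (87272 in the whole table), 31311 met the rule, which is 36.3%. These are called the members, and the H3K4me3 region that shares most bases with a member is called its partner. Of the other H3K27ac regions on these chromosomes, 51137 overlapped neither mark, 2606 overlapped both marks and 1192 overlapped H3K27me3 only.

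The study profiled 3 histone marks by chromatin immunoprecipitation and sequencing in perirenal adipose tissue of wild-type Merino sheep, to follow the tissue from the brown fat of the fetus to the white fat of the lamb. The fetal group was taken at 132 ± 1 days of gestation (term is 150 ± 3 days), and the lamb group after birth, at an age given as 80 days in the study design and as 89 ± 7 days in the growth protocol. Each stage had 2 H3K27ac and 2 H3K27me3 libraries, and H3K4me3 had 2 fetal and 3 lamb libraries. Lambs 1 and 2 and fetuses 1 and 2 each gave all 3 marks, lamb 3 gave H3K4me3 alone, and the 2 pooled input libraries have no values in the tables. Names of the lambs, and not those of the fetuses, end in VEH, which the labels do not explain, and the protocol states that the animals were given no treatment. The frozen tissue was ground whole, so fewer cells of a type and less of a mark per cell cannot be told apart.

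H3K27ac is an acetyl group on lysine 27 of histone H3 that marks active promoters and active enhancers. H3K4me3 is a methyl mark of lysine 4 that is densest at the transcription start sites of active genes and present at low level elsewhere, and H3K27me3 is the mark of Polycomb-repressed chromatin on the same lysine that carries the acetyl group. A region with H3K27ac and H3K4me3 and without H3K27me3 is therefore usually read as an active promoter. In the perirenal fat of the late fetal sheep, brown adipocytes hold the heat-producing machinery of mitochondria and uncoupling protein, and the depot turns to white fat after birth.

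The members were longer than the H3K27ac regions that overlapped neither mark, with a median length of 1800 bp (range 550 to 36750) against 1050 bp. Of the members, 29661 overlapped a single H3K4me3 region and 1650 overlapped several, up to 9. The largest-overlap partners were 27502 distinct H3K4me3 regions, so some members share a partner and are not independent of each other. The overlap covered at least 50% of the shorter region in 97.1% of the members. At the margin of the rule, 100 members overlapped H3K4me3 by only 50 bp and had a median H3K27ac change of 0.10, and 268 regions that missed the rule had an H3K4me3 region within 50 bp and a median of 0.07. The share of H3K27ac regions that were members ran from 29.9% on chromosome 16 to 50.1% on chromosome 24. The deposited tables pair no gene with a region, so members are named by position on the Oar_v3.1 assembly, counted from 1 (deposited starts are multiples of 50 and were read as counted from 0), and genes enter only where a promoter table gives their position or their own value.

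Most partners lay within the density range of H3K4me3 regions that lack H3K27ac. Levels are given as CPM, the reads of a region relative to the table's total after scaling by edgeR's TMM factors, per kilobase where regions of different length are compared. The median partner held 5.14 CPM per kb of H3K4me3, against 5.0 in the 24643 H3K4me3 regions without H3K27ac. Only 9586 members (30.6%) had a partner above 9.22 CPM per kb, the 95th percentile of those regions, and these are called members with a dense partner. Dense partners were long (median 3500 bp) and the other partners short (median 1200 bp), while the members themselves were alike in length (medians 1750 and 1800 bp). The number of members also exceeds the 13222 promoters in the H3K27ac promoter table, so the whole set is called here by its rule and not as promoters.

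H3K27ac fell at more members than it rose. The median member held 6.68 and 6.57 CPM per kb in fetuses 1 and 2 and 6.27 and 6.36 in lambs 1 and 2, so both lambs lay below both fetuses. With edgeR's quasi-likelihood test on the deposited counts and Benjamini-Hochberg adjustment over the whole table at 0.05, 4570 members (14.6%) were lower and 726 (2.32%) higher in lambs. The same test called 9.44% of all H3K27ac regions lower and 4.48% higher, and 6.31% lower and 5.21% higher among the regions that overlapped neither mark. DESeq2 called 4078 members lower and 544 higher, and 8.23% and 3.22% of all regions. Both lambs lay below both fetuses at 40.8% of the members and above them at 20.1%, against 30.2% and 29.4% of all regions. The median log2 change, lamb over fetal, was -0.09 over the members, 0.00 over all regions and 0.06 over the regions of neither mark. The share of each library's H3K27ac reads that fell in members was 54.6% and 53.7% in the fetuses and 49.8% and 50.9% in the lambs. That difference of -3.76 percentage points exceeded the spread within either stage, with a two-sided exact permutation p of 0.33, the smallest that 2 against 2 libraries allow.

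Among the 4570 members called lower, the median H3K27ac level was 7.68 and 8.37 CPM per kb in the fetuses and 4.96 and 5.18 in the lambs. Among the 726 called higher it was 6.08 and 5.23 in the fetuses and 8.98 and 8.76 in the lambs. Counts of calls depended on single libraries. Leaving out fetus 1 gave 7788 lower and 4332 higher members, fetus 2 gave 6240 and 1075, lamb 1 gave 1216 and 42, and lamb 2 gave 1827 and 135. Scaling by table totals gave 3484 lower and 1324 higher, and cyclic loess offsets, which remove any change that follows the level of a region, gave 3271 and 1018, so that the lower calls outnumbered the higher under each of these settings.

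The length of a member went with its H3K27ac change. In 4 groups of similar size by length, the share called lower was 4.81% for members up to 1150 bp, 10.4% up to 1800 bp, 15.3% up to 2900 bp and 28.7% above that, and the share called higher went from 3.60% to 1.19%. Longer regions hold more reads and are called more easily, and the part of this in the counts was not tested. The median change went from 0.03 in the shortest group to -0.21 in the longest. Under cyclic loess offsets these medians were -0.02 and -0.04, so the order by length did not hold there. The ratio of the longest to the shortest group within a library, on the log2 scale, was 2.81 and 2.89 in the fetuses and 2.59 and 2.57 in the lambs (difference -0.27, two-sided exact permutation p = 0.33, the smallest possible). The H3K27ac regions of neither mark showed the same order, from 3.27% lower in the shortest group to 19.9% in the longest.

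By median change, members and regions without another mark differed most at high H3K27ac density. In the densest of 4 groups, above 7.28 CPM per kb, 18.6% of the members were lower and 4.54% higher, with a median log2 change of -0.11. The 2957 regions of neither mark above the same density had a median of 0.37, with 1.93% lower and 32.6% higher. Within each library, the log2 ratio of the reads in these dense members to those in the equally dense regions of neither mark was 2.50 and 2.49 in fetuses 1 and 2 and 2.09 and 2.13 in lambs 1 and 2. All lamb ratios lay below all fetal ratios (difference -0.39, two-sided exact permutation p = 0.33, the smallest possible). In the settings tried the median of the dense members stayed between -0.14 and 0.02 and that of the dense regions of neither mark between 0.35 and 0.44.

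**Figure D1:**
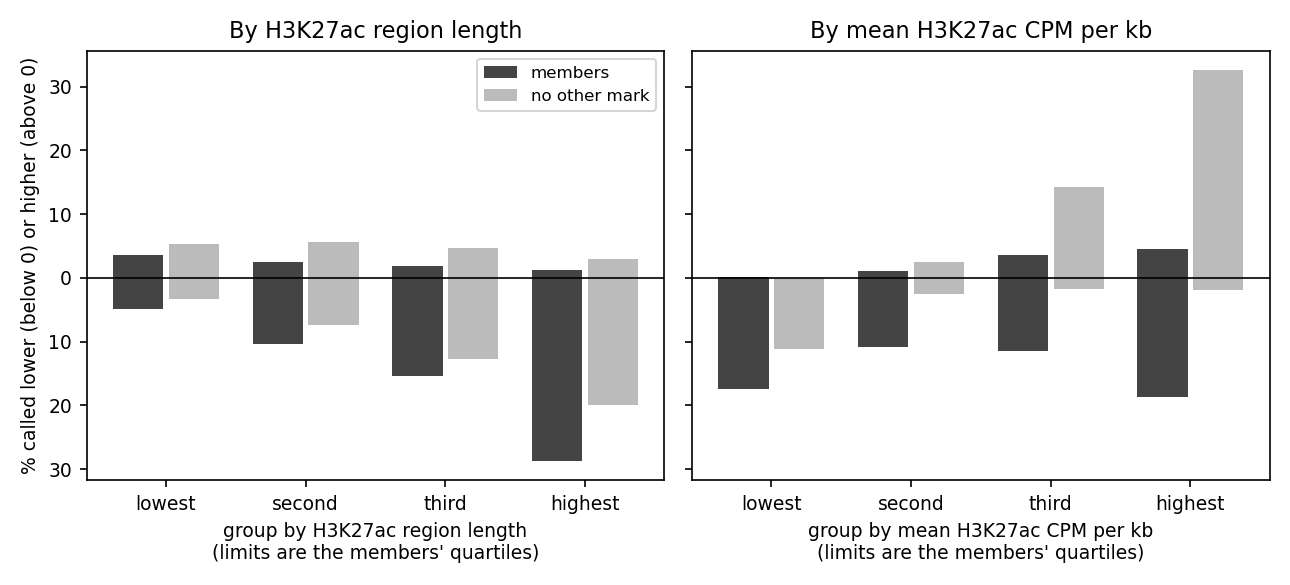
Percentage of H3K27ac regions called lower (bars below 0) or higher (bars above 0) in lambs, by region length (left) and by mean H3K27ac CPM per kb (right), for the members (dark) and for H3K27ac regions that overlap no other mark (light). In the densest group 18.6% of the members were lower and 32.6% of the regions of neither mark were higher. Density is the mean over the same fetal and lamb libraries that are compared.

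At dense partners the median H3K4me3 level was lower in lambs. In the 7003 dense partners the median H3K4me3 level was 15.0 and 19.2 CPM per kb in fetuses 1 and 2 and 11.4, 7.04 and 8.17 in lambs 1, 2 and 3, so every lamb lay below both fetuses. In the 20499 other partners it was 3.82 and 4.39 in the fetuses and 4.43, 4.44 and 4.82 in the lambs, all 3 lambs above both fetuses by a small margin under this choice of dense partners. Over the members with a dense partner the median log2 change was -0.95, and 99.7% of the changes were negative, given as a description. Over the other members the median was 0.00, and 50.0% were negative. The choice of dense partners by their mean level uses the fetal libraries too, so part of a lower lamb value is built into it. Chosen from the lamb libraries alone, by the same percentile, 3366 partners were dense. Their medians were 17.2 and 22.2 CPM per kb in the fetuses and 13.2, 7.95 and 9.23 in the lambs, with a median change of -0.93 over 4439 members, 98.7% of them negative. The median over the remaining members was then -0.18, so the value near 0 depends on this choice. That choice was added after the data were seen. Level and change come from the same libraries here, and across the 31311 members they had a Pearson correlation of -0.67 (description only).

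The size of the H3K4me3 fall at dense partners depended on the libraries and on the scaling. The median was -1.12 without fetus 1, -0.60 without fetus 2, -1.19 without lamb 1, -0.68 without lamb 2 and -0.89 without lamb 3, and -0.49 without lambs 2 and 3 together. Cyclic loess offsets, which take out a change that follows level, left -0.14. Table totals in place of TMM factors raised every H3K4me3 change by about the same amount, from a median of -0.04 to 0.15 over all regions of the table and from -0.95 to -0.77 over members with a dense partner. Lambs 2 and 3 had the shallowest H3K4me3 tables (13090548 and 12482468 reads, against 37544047, 58333449 and 41765806 in fetus 1, fetus 2 and lamb 1), and the part of depth in these values was not tested.

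**Figure D2:**
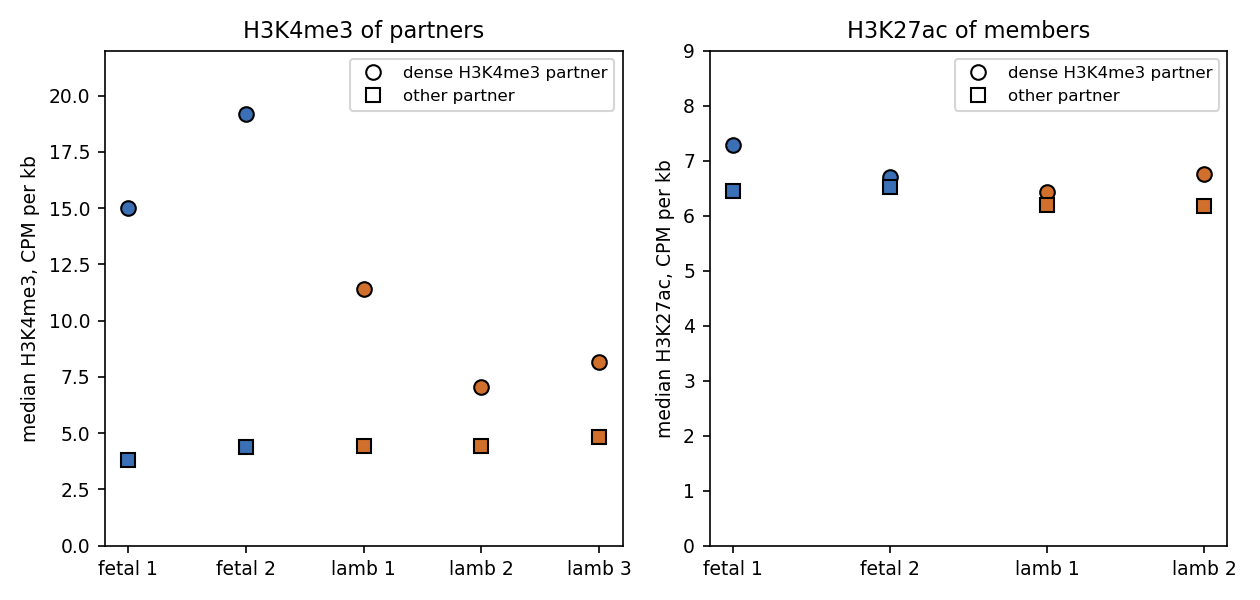
Median level per library, in CPM per kb, of H3K4me3 over partners (left) and of H3K27ac over members (right), for members with a dense H3K4me3 partner (circles) and for the other members (squares), with fetal libraries in blue and lamb libraries in orange. H3K4me3 of dense partners was 15.0 and 19.2 in the fetuses and 7.04 to 11.4 in the lambs, while the H3K27ac medians of the same members differed far less.

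Few partners passed the test for H3K4me3. Of the 27502 distinct partners, edgeR called 31 lower (0.113%) and 4 higher (0.0145%), against 0.0619% lower and 0.0529% higher of all 66207 H3K4me3 regions. Counted by member, 42 had a partner called lower, and of these 2 had a dense partner. At an unadjusted p under 0.05 the same fit gave 7676 lower and 642 higher partners. DESeq2 called 3257 lower and 83 higher of the 23702 partners it tested, where it called 6.84% and 3.13% of all regions it tested. The edgeR calls moved with each library left out. They were 6588 lower and 1015 higher when fetus 1 was left out, 884 lower and 2923 higher for fetus 2, 3582 and 16 for lamb 1, none for lamb 2, and 12 and 4 for lamb 3. The median change over partners was -0.22 with all libraries, -0.36 without fetus 1 and 0.07 without fetus 2. The fetuses differed from each other by a median log2 ratio of 0.36 over the partners, while lambs 1, 2 and 3 differed from fetus 1 by -0.07, -0.14 and -0.06 and from fetus 2 by -0.34, -0.43 and -0.34.

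The share of H3K4me3 reads that fell in partners, counted over each whole partner, was 53.9% and 68.5% in fetuses 1 and 2. It was 48.6%, 36% and 39.6% in lambs 1, 2 and 3. No lamb reached the lower fetus (difference of means -19.8 percentage points, two-sided exact permutation p = 0.2, the smallest that 2 against 3 libraries allow). The spread within a stage was wide, with an SD of 10.3 points in the fetuses and 6.47 in the lambs.

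Taken pair by pair, the 2 marks changed in the same direction more often than not. Each mark alone was negative at most members (60.8% in H3K27ac and 65.2% in H3K4me3). Part of the shared direction follows from that, and the excess over it was not tested. Both changes were negative in 42.9% of the members and both positive in 16.8%, while H3K27ac was negative and H3K4me3 positive in 18.0% and the reverse held in 22.3%. Of the members called lower in H3K27ac, 80.2% had a negative H3K4me3 change, with a median of -0.58. Of the members called higher in H3K27ac, 47.5% had a negative H3K4me3 change, with a median of 0.08, and over all members 65.2% were negative. Across members the Pearson correlation of the changes was 0.24, 0.46 for members with a dense partner and 0.30 for the others. These are descriptions across regions whose libraries come from the same animals, and the value over all members ran from 0.10 to 0.37 when each of the 4 animals with both marks was left out. Animal 2 minus animal 1 of the fetuses, with no change of stage in it, gave a correlation of 0.60 between the marks over the same members, and that of the lambs gave -0.04.

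**Figure D3:**
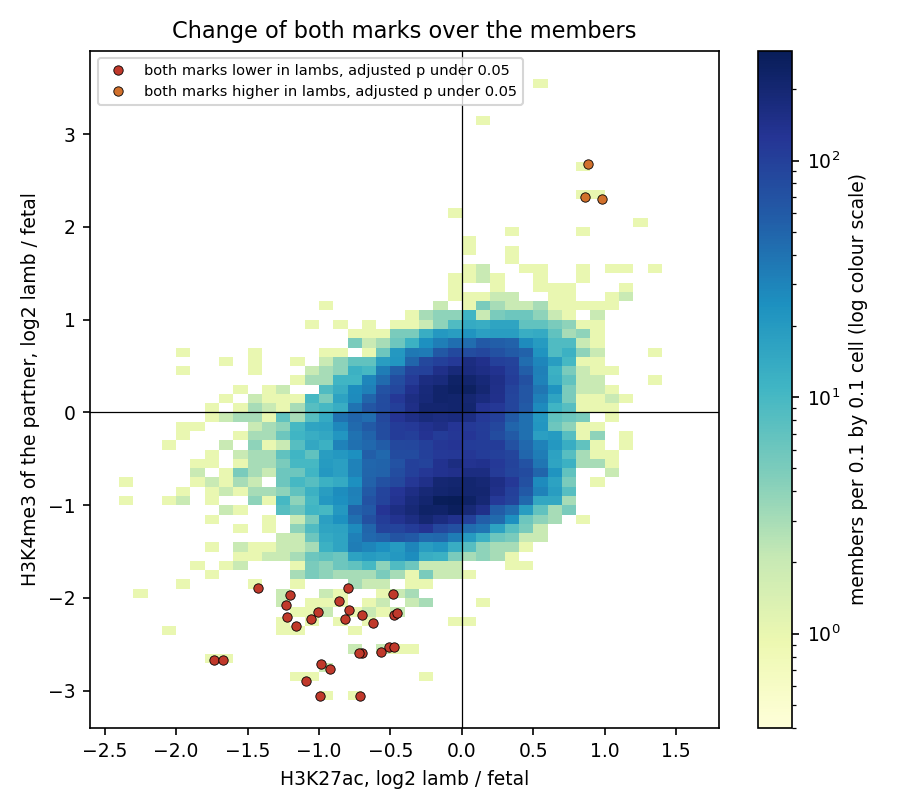
Change of H3K27ac (horizontal axis) and of H3K4me3 at the partner (vertical axis), both as log2 lamb over fetal, over the 31311 members, with colour for the number of members per cell on a log scale. The members form a cloud near no H3K4me3 change and one near -1, and points mark the 28 members called lower and the 3 called higher in both marks.

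Of the 31311 members, 28 were called lower in both marks, 3 were called higher in both and none was called in opposite directions. Among all 33917 pairs of an H3K27ac and an H3K4me3 region on these chromosomes, 0.0943% were lower in both and 0.0118% higher in both. The 28 lie on 14 chromosomes and share 22 partners. Their H3K27ac changes ran from -0.45 to -1.73 (median -0.84) and their H3K4me3 changes from -1.89 to -3.06 (median -2.25). In all 28 the H3K4me3 change was the larger. H3K4me3 changes had larger standard errors and were called only when large, so part of this order is built into the selection. Their median length was 3800 bp (range 650 to 12200). The calls rested on few libraries. In both marks at once, 28 were still called when fetus 1 was left out, 27 for fetus 2, 16 for lamb 1, none for lamb 2 and 10 for lamb 3, while the H3K4me3 change kept its sign in all 28 each time. None was called under cyclic loess offsets, 12 under DESeq2's size factors, 13 with the replicate block, 22 with table totals and 28 with DESeq2. With each library left out in turn, the number of members called lower in both marks was 3335, 345, 206, 0 and 11 in the same order.

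**Figure D4:**
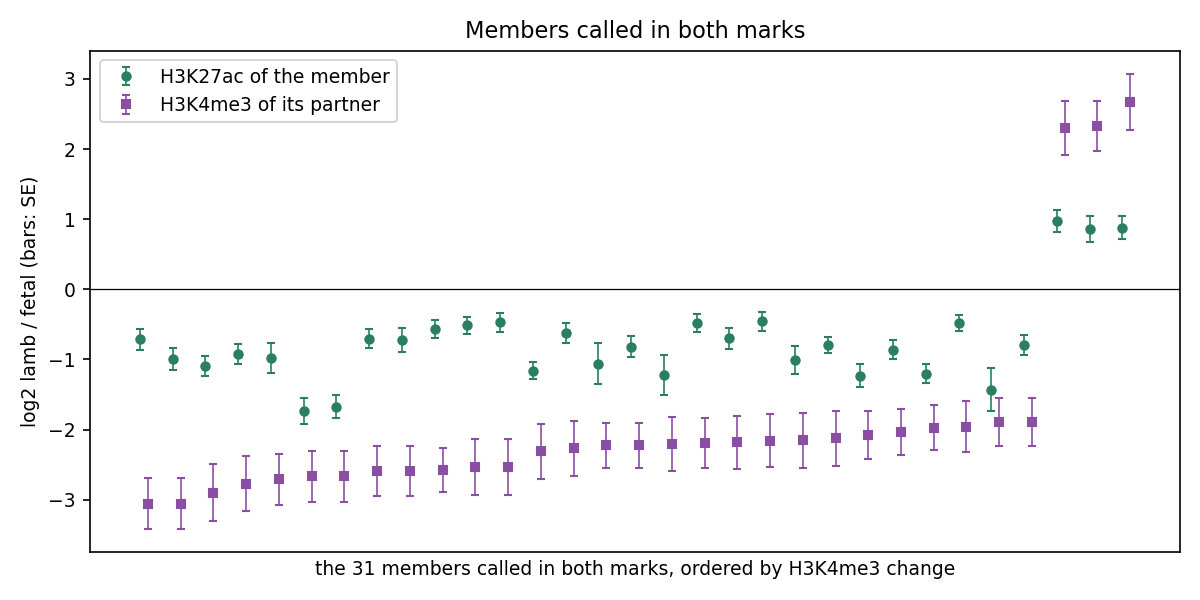
Log2 change, lamb over fetal, of H3K27ac at the member (circles) and of H3K4me3 at its partner (squares) for the 31 members called in both marks, ordered by H3K4me3 change, with bars for the standard error of each fit. In all 31 the H3K4me3 change was further from 0 than the H3K27ac change. Part of this is built into the selection, as H3K4me3 was called only at large changes.

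Joint changes are ordered here by the smaller of the 2 changes. By that order the first joint loss was on chromosome 3. The member chr3:75674351-75676100 held 10.6 and 13.1 CPM of H3K27ac in fetuses 1 and 2 and 3.65 and 3.47 in lambs 1 and 2. Its partner, chr3:75674051-75676400, held 15.6 and 29.7 CPM of H3K4me3 in the fetuses and 2.62, 4.04 and 4.19 in lambs 1, 2 and 3. Neither mark overlapped between the stages, with log2 changes of -1.73 ± 0.18 (SE, edgeR adjusted p = 0.000119) for H3K27ac and -2.67 ± 0.36 (SE, edgeR adjusted p = 0.00932) for H3K4me3. A further member begins 200 bp after it, chr3:75676301-75679850, and touches the same partner by 100 bp. Its H3K27ac was 20.5 and 26.8 CPM in the fetuses and 7.74 and 7.06 in the lambs, a log2 change of -1.67.

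Next in that order were losses on chromosomes 13 and 18. At chr13:53233801-53234550 H3K27ac was 4.14 and 3.48 CPM in the fetuses and 1.57 and 1.25 in the lambs. Its partner held 16.1 and 10.8 CPM of H3K4me3 in the fetuses and 2.37, 3.75 and 4.96 in the lambs. At chr18:30443901-30448250 H3K27ac was 35.0 and 24.3 CPM in the fetuses and 13 and 12.3 in the lambs. H3K4me3 at its partner was 25.2 and 30.9 CPM in the fetuses and 4.48, 8 and 7.70 in the lambs. In both, every lamb lay below every fetus in each mark. The H3K27ac call at the chromosome 13 member was lost without lamb 1 or lamb 2, and the H3K4me3 call at the chromosome 18 partner without lamb 2 or lamb 3.

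All 3 joint gains were short, 900 to 1800 bp, and a pair of them were neighbours on chromosome 5. At chr5:37982401-37984200 H3K27ac was 11.8 and 9.97 CPM in the fetuses and 23.6 and 19.4 in the lambs. H3K4me3 at its partner was 6.01 and 4.31 CPM in the fetuses and 31.9, 27.1 and 17.0 in the lambs, a log2 change of 2.30 ± 0.38 (SE, edgeR adjusted p = 0.0285). The member 5550 bp before it, chr5:37975651-37976850, had 7.14 and 7.23 CPM of H3K27ac in the fetuses and 14.0 and 12.4 in the lambs, over H3K4me3 values of 0.826 and 0.693 and of 5.48, 5.10 and 3.89 CPM. On chromosome 20, at chr20:10527201-10528100, H3K27ac was 4.21 and 3.93 CPM in the fetuses and 7.92 and 6.89 in the lambs. Its partner held 1.45 and 1.09 CPM of H3K4me3 in the fetuses and 6.87, 5.59 and 6.56 in the lambs. Both marks separated the stages at all 3, and without lamb 2 none of the 3 H3K4me3 gains passed the test. The H3K27ac calls at chr5:37975651-37976850 and on chromosome 20 were lost without lamb 1.

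The largest falls of H3K27ac were not the largest falls of H3K4me3. At chr9:4261701-4264150 H3K27ac was 16.8 and 24.2 CPM in the fetuses and 3.29 and 4.56 in the lambs, a log2 change of -2.39 ± 0.21 (SE, edgeR adjusted p = 3.57e-05). H3K4me3 of its partner went from 12.1 and 8.95 CPM to 4.88, 7.22 and 4.27, a log2 change of -0.95 that did not pass the test (edgeR adjusted p = 0.111). At chr21:13458251-13460600 H3K27ac was 11 and 23.1 CPM in the fetuses and 2.91 and 3.61 in the lambs, and at chr16:47766151-47769350 it was 20.0 and 23.1 against 4.06 and 4.72. At chr2:222779201-222780300 it was 4.23 and 7.99 CPM in the fetuses and 1.43 and 1.42 in the lambs, and at chr20:27701951-27702550 it was 4.09 and 3.81 against 1.66 and 0.167. The lambs lay below the fetuses at all 5. The partners of the last 4 changed by -0.75, -1.93, -0.30 and -2.34 in H3K4me3 on the log2 scale, none past the threshold (edgeR adjusted p from 0.0631 to 0.777). The change at the chromosome 20 member was -4.54 without lamb 1 and -1.25 without lamb 2, where its call was lost.

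The largest gains of H3K27ac were at short members with few reads. At chr1:65634301-65634900 H3K27ac was 3.72 and 2.11 CPM in the fetuses and 8.96 and 6.36 in the lambs, a log2 change of 1.39 ± 0.26 (SE, edgeR adjusted p = 0.00349). The member chr1:65721101-65722150, 86200 bp further on, had 6.60 and 1.57 CPM in the fetuses and 11.6 and 8.36 in the lambs, a gain of 1.28 with a wide fetal spread, and its call was lost with DESeq2 and with cyclic loess offsets. That gain was 2.67 without fetus 1 and 0.60 without fetus 2. At chr6:25395901-25396600 the values were 2.88 and 3.07 against 6.29 and 9.03 CPM, and at chr6:44239851-44240500 they were 2.81 and 2.31 against 5.31 and 7.61. At chr11:39035301-39036450 H3K27ac was 6.53 and 4.06 CPM in the fetuses and 12 and 12.3 in the lambs. Its H3K4me3 partner, 8000 bp long, held 99.4 and 98.5 CPM in the fetuses and 104, 60.5 and 82 in the lambs, which overlap. The first of these calls was lost without lamb 1 and both calls on chromosome 6 without lamb 2. None of the 5 gains had an H3K4me3 change past the threshold (edgeR adjusted p from 0.0665 to 0.749).

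The largest H3K4me3 falls were on chromosomes 1, 2, 19 and 24. At the partner of chr1:28162351-28165750 H3K4me3 was 82.7 and 82.7 CPM in fetuses 1 and 2 and 7.13, 12.1 and 10.8 in lambs 1, 2 and 3, a log2 change of -3.06 ± 0.36 (SE, edgeR adjusted p = 0.00443). H3K27ac of that member was 22.9 and 19.5 CPM in the fetuses and 13.8 and 12.1 in the lambs, a change of -0.71. At chr1:147666451-147672250 H3K4me3 went from 46.4 and 117 CPM to 8.96, 13.7 and 10.3 and H3K27ac from 55.6 and 71.0 to 27.8 and 31.5. At chr19:16673851-16677050 H3K4me3 went from 18.7 and 33.7 CPM to 2.23, 5.45 and 4.12 and H3K27ac from 19.9 and 23.9 to 11.7 and 11.4. At chr24:1543901-1544550, which its partner covers by 100 bp only, H3K4me3 went from 11.6 and 4.36 CPM to 0.720, 1.42 and 1.45. H3K4me3 separated the stages at each of these, and at each the H3K4me3 call was lost without lamb 2.

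A single member differed between the marks when the difference itself was tested with libraries treated as independent. Fetuses 1 and 2 and lambs 1 and 2 each gave both marks. That pairing enters only the fit with the animal as a block, given at the end of this paragraph. Over the 33917 pairs, the interaction of mark and stage passed at 1 (0.00295%), chr2:233972251-233974200. Its H3K27ac was 14.6 and 10.3 CPM in fetuses 1 and 2 and 9.28 and 11.3 in lambs 1 and 2, which overlap. H3K4me3 of its partner, chr2:233972101-233974750, was 37.7 and 27.4 CPM in the fetuses and 3.92, 5.10 and 4.19 in the lambs. The H3K27ac change exceeded the H3K4me3 change by 2.62 ± 0.38 on the log2 scale (SE, edgeR adjusted p = 0.0334). Without lamb 1, 2 or 3 the call was lost, with differences between 2.45 and 2.67 over the animals left out. When fetus 1 was left out the H3K27ac change was the higher at 420 called members and the lower at 145, and when fetus 2 was left out at 142 and 1278. With the animal as a replicate block it was the higher at 13 members and the lower at 12, against 0.0442% and 0.0383% of all pairs (0.0826% in either direction).

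Of those called with the block, described here after their values had been seen, chr1:28162351-28165750 (given above) and chr13:61278101-61279700 had the larger H3K4me3 fall. At the latter H3K27ac was 11.8 and 7.79 CPM in the fetuses and 9.85 and 9.45 in the lambs, while H3K4me3 was 18.2 and 9.54 against 1.60, 3.61 and 3.74. In the other direction, chr6:62541301-62542900 had 8.91 and 12.7 CPM of H3K27ac in the fetuses and 3.27 and 2.25 in the lambs, beside H3K4me3 of 15.7 and 7.83 against 18.2, 21.6 and 13.7. At chr2:21628451-21631500 H3K27ac was 21.6 and 22.7 CPM in the fetuses and 6.06 and 5.78 in the lambs, and H3K4me3 was 6.53 and 2.44 against 5.22, 6.30 and 7.01. At chr4:63546951-63547900 H3K27ac was 5.30 and 6.98 CPM against 3.34 and 3.06, and H3K4me3 was 2.25 and 1.39 against 4.16, 4.46 and 3.74. The members on chromosomes 4 and 6 touch their partners by 100 bp only, so the marks there are mostly side by side.

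The longest members and those with the most H3K27ac had small changes. The longest, chr5:58290901-58327650, is 36750 bp long, overlaps 5 H3K4me3 regions and held 376 and 306 CPM of H3K27ac in the fetuses and 287 and 252 in the lambs (log2 change -0.34 ± 0.11 SE, edgeR adjusted p = 0.0472, lost without fetus 1, where it was -0.19, or lamb 2). The member chr12:43103301-43139100 held 351 and 322 CPM in the fetuses and 293 and 286 in the lambs, a change of -0.22 that did not pass. At chr1:98322701-98349050 the values were 333 and 326 against 246 and 243 CPM, and at chr10:73767101-73797450 they were 314 and 290 against 228 and 231, with calls that were lost without lamb 2 at both and without lamb 1 at the second. At chr7:77100701-77131100 they were 288 and 278 against 247 and 240 CPM, a change of -0.21 (edgeR adjusted p = 0.117). Every lamb lay below every fetus at all 5, by less than a log2 change of 0.45, and cyclic loess offsets turned the changes on chromosomes 5, 7 and 12 positive.

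Genes can be placed in members where a name in the promoter tables carries its position, as it does for 1454 entries, nearly all of them copies of multi-copy small RNA genes. Of these, 139 overlap a member, in 125 distinct members. Such families were grouped, and their members picked for description, after their values had been seen, and reads in near-identical copies cannot be assigned with certainty. Of the 125, 100 had a negative H3K27ac change (median -0.28), and 86 had negative changes in both marks, as did 42.9% of all members. In H3K27ac 37 were called lower and none was called higher (background over all regions 9.44% lower and 4.48% higher). With each library dropped, the counts were 49 lower and 9 higher for fetus 1, 45 and 1 for fetus 2, 15 and 0 for lamb 1, and 20 and 0 for lamb 2. None of their partners was called in H3K4me3, where the median change was -0.90.

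Spliceosomal RNA genes, whose products cut introns from transcripts, lay in 48 members. Of these, 18 were called lower in H3K27ac and 39 had a negative change (median -0.30). Small nucleolar and Cajal body RNA genes, whose products guide the modification and cleavage of other RNAs, lay in 44 members. There 9 were called lower and 35 were negative (median -0.20). Genes of 5S ribosomal RNA lay in 8 members, of which 2 were called lower and 4 were negative, with a median of -0.09. A run of 6 members on chromosome 11, from 9127351 to 9189950, holds copies named U3, ACEA_U3 and U1. U3 acts in the cleavage of ribosomal RNA, and U1 recognises the start of introns. At the member with the first U3 copy, chr11:9127351-9130700, H3K27ac was 29.0 and 31.8 CPM in the fetuses and 16.7 and 17.4 in the lambs, a log2 change of -0.84 ± 0.13 (SE, edgeR adjusted p = 0.00136). The U1 member chr11:9181751-9184250 had 27.1 and 25.2 CPM in the fetuses and 15.1 and 16.0 in the lambs. The last U1 member, chr11:9187951-9189950, had 16.5 and 16.8 CPM against 15.5 and 16.1, a change of -0.08. Of the 6, 4 were called lower and all 6 had a negative H3K4me3 change, none of them called.

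Protein-coding genes with a position were few. SRSF3, which encodes a splicing factor, overlaps the member chr20:10601851-10608100, with 64.9 and 58.4 CPM of H3K27ac in the fetuses and 32.5 and 35.6 in the lambs. Its log2 change was -0.86 ± 0.12 (SE, edgeR adjusted p = 0.000712), and the joint gain at chr20:10527201-10528100 lies 77.5 kb from that gene. H3K4me3 of the SRSF3 partner was 185 and 383 CPM in the fetuses and 176, 120 and 136 in the lambs, a change of -0.98 that did not pass the test. An entry named HSP70, for the inducible heat shock chaperone, overlaps chr20:26654801-26660500, where H3K27ac was 58.2 and 51.7 CPM in the fetuses and 34.5 and 38.9 in the lambs. RNase_MRP, the RNA of a ribosomal RNA processing enzyme, lies in chr2:52564051-52568500, with 36.6 and 30.6 CPM against 25.2 and 24.8. These 3 members were picked after their values were seen, and in each the lambs lay below the fetuses. Other placed protein-coding genes were mixed. H3K27ac changed by 0.50 at the member with C4, 0.09 with RPL13A and 0.08 with BRMS1L. It changed by -0.09 with ANXA2, -0.12 with ATP2B, -0.28 with RPS25 and -0.29 and -0.31 with ADORA3 entries. None of these was called, while the members with YWHAZ (-0.52) and HOXA5 (-0.48) were called lower. The YWHAZ call was near the threshold (edgeR adjusted p = 0.0487), and H3K27ac at its promoter changed by -0.10 without a call. Promoters of HOXA5 and ATP2B are also listed for H3K27me3.

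The promoter tables give the same combination of marks by gene. A promoter was counted here when it was listed for H3K27ac and H3K4me3 and not for H3K27me3, which held for 8199 genes. Values were scaled by the authors, so limma was run on log2(value + 1) after TMM scaling, and fold changes of low promoters are understated on that scale. H3K27ac was lower at 2093 of these promoters and higher at 368 (25.5% and 4.49%), against 17.7% lower and 11.4% higher of all H3K27ac promoters (29.1% in either direction). H3K4me3 was lower at 225 and higher at 378 (2.74% and 4.61%), against 1.9% and 8.33% of all H3K4me3 promoters (10.2% in either direction). The median H3K4me3 change over these promoters was -0.26, and 0.00 over all H3K4me3 promoters. Both marks were lower at 176 of the 8199 (2.15%) and both were higher at 87 (1.06%). At 16 (0.195%) H3K27ac was lower and H3K4me3 higher. Calls again rested on single libraries. For H3K27ac, leaving out fetus 1 gave 2528 lower and 1092 higher, fetus 2 gave 2390 and 664, lamb 1 gave 938 and 32, and lamb 2 gave 1342 and 81. For H3K4me3, leaving out fetus 1 gave 2755 lower and 789 higher, fetus 2 gave 50 and 306, lamb 1 gave 242 and 533, lamb 2 gave 8 and 14, and lamb 3 gave 4 and 2. The replicate block, which leaves out lamb 3, kept 1 H3K4me3 promoter, and it kept none of the H3K4me3 promoter calls named here.

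The gene lists are given beside the shares over all 8199 promoters, 25.5% lower and 4.49% higher in H3K27ac and 2.74% lower and 4.61% higher in H3K4me3. Of 8 brown fat and thermogenic genes with these promoter marks, DIO2, PPARGC1A and COX7A1 (3 genes) were lower and none higher in H3K27ac, and DIO2 and SLC29A1 (2 genes) were lower in H3K4me3. DIO2, the deiodinase that activates thyroid hormone inside brown adipocytes, had H3K27ac values of 268 and 303 in the fetuses and 152 and 164 in the lambs, and H3K4me3 values of 432 and 490 against 236, 229 and 203. Its log2 changes were -0.85 ± 0.15 (SE, limma adjusted p = 0.000461) and -1.04 ± 0.31 (SE, limma adjusted p = 0.0308), the second lost without fetus 2, lamb 2 or lamb 3 and with table totals. PPARGC1A, the coactivator that drives mitochondrial biogenesis, had H3K27ac of 439 and 506 in the fetuses and 244 and 271 in the lambs (log2 change -0.87, limma adjusted p = 0.00012). Its H3K4me3 was 545 and 942 against 460, 444 and 369, a change of -0.76 that did not pass (limma adjusted p = 0.0596). UCP1 and ADRB3 are also listed for H3K27me3 and so fall outside this set. Of 18 adipocyte identity genes, 5 were lower in H3K27ac (ADIPOR2, FABP4, PPARG2, ACSL1 and ADIPOQ), a share near that of all these promoters, and 1, ADIPOR1, was higher. In H3K4me3 2 were lower (ACSL1 and PLIN4) and 1, KLF15, was higher. The adipocyte-defining genes ADIPOQ, FABP4 and PPARG2 are listed for both active marks. So are 9 endothelial, 9 stromal, 4 macrophage and 2 skeletal muscle genes, so this listing alone cannot check the labelled tissue. ACSL1, which activates long-chain fatty acids, had H3K27ac of 311 and 344 in the fetuses and 216 and 215 in the lambs, and H3K4me3 of 454 and 722 against 147, 210 and 226. The lambs lay below the fetuses in both marks. None of the 13 adrenal marker genes, 9 of which are in at least 1 promoter table, had this combination of promoter marks. Of these genes 2 are listed for H3K27ac alone and 1 for all 3 marks.

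Respiratory chain and ATP synthase genes were called lower in H3K27ac at 12 of 36 promoters (25.5% of all these promoters) and in H3K4me3 at 7 (2.74% of all), and none was called higher. Both changes were negative at 32 of the 36, and at 51.0% of all 8199. UQCRB, a subunit of complex III, had H3K27ac of 249 and 288 in the fetuses and 213 and 191 in the lambs, and H3K4me3 of 677 and 1256 against 287.1, 355 and 339. Its H3K27ac call was lost without fetus 2, lamb 1 or lamb 2. NDUFS4 of complex I and UQCRQ of complex III were the other genes of the list called in both marks, and their H3K4me3 calls were lost without fetus 2 (changes -0.46 and -0.55) or any 1 lamb. Of 27 citric acid cycle and fatty acid oxidation genes, 5 were lower and 1 higher in H3K27ac and 3 were lower in H3K4me3, with MDH1, a malate dehydrogenase, called lower in both. H3K4me3 at MDH1 was 572 and 1348 in the fetuses and 298, 367 and 399 in the lambs, a call lost without fetus 2 (change -0.70), lamb 1 or lamb 3, and its H3K27ac call was lost without fetus 2 or lamb 1. Of 15 fatty acid and glyceride synthesis genes, 6 were lower in H3K27ac and 1, ACLY, in H3K4me3, a call lost without any 1 lamb. ACACA, which makes the malonyl-CoA used to build fatty acids, had H3K27ac of 334 and 367 against 213 and 230.

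Genes of growth and of other cells gave a mixed picture. Of 22 cytosolic ribosomal protein genes, 7 were lower in H3K27ac and none was called in H3K4me3. Of 27 DNA replication and cell division genes, 9 were lower and 1 higher in H3K27ac, with CCNA2, the cyclin of S phase, called lower in both marks (its H3K4me3 change was -0.43 without fetus 2, and the call was lost there and without any 1 lamb). Of 9 stromal and preadipocyte genes, 6 were lower and 2 higher in H3K27ac. COL3A1, a fibrillar collagen, had H3K27ac of 581 and 791 in the fetuses and 256 and 286 in the lambs, and H3K4me3 of 612 and 1771 against 585, 599 and 504, whose call was lost without fetus 2 or any 1 lamb. That H3K4me3 change was -1.66 without fetus 1 and -0.12 without fetus 2. Summed over those 9 promoters H3K27ac was 3362 and 3723 in the fetuses and 2296 and 2388 in the lambs. Of 4 macrophage genes, CD68 had H3K4me3 of 164 and 127 in the fetuses and 327, 449 and 383 in the lambs (log2 change 1.40, limma adjusted p = 0.00925, lost without lamb 2 or lamb 3). Its H3K27ac was 155 and 144 against 148 and 144, with no call. MRC1 was lower in H3K27ac, a call lost without fetus 2 (change -0.24), lamb 1 or lamb 2. H3K4me3 at MRC1 was 102 and 104 in the fetuses and 167, 285 and 222 in the lambs, a log2 change of 1.08 that did not pass (limma adjusted p = 0.0809). Of 9 endothelial genes 3 were lower in H3K27ac and 1, ERG, higher in H3K4me3 (lost without fetus 2, lamb 2 or lamb 3). Of 2 skeletal muscle genes 1, MYL1, was lower in H3K27ac, with a change of -1.53 without fetus 1 and -0.24 without fetus 2, where the call was lost. Summed H3K27ac over the 4 macrophage promoters was 1160 and 1180 in the fetuses and 1096 and 1026 in the lambs. Their summed H3K4me3 was 1088 and 1375 against 1613, 1659 and 1478, with every lamb above both fetuses. CD68 and MRC1 are part of that H3K4me3 sum, and the rest of it overlapped between the stages. Over the 9 endothelial promoters H3K27ac summed to 2877 and 2549 against 2454 and 2391, and H3K4me3 to 3025 and 4257 against 3162, 3180 and 3869, which overlap. The part of a shift in cell types in the other values was not tested.

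By the smaller of the 2 changes, the genes with the largest joint gains were PSTPIP2, NOD2, IFI44L and OCIAD2 and a Y RNA copy. NOD2, an intracellular sensor of bacterial cell wall, had H3K27ac of 124 and 96.8 in the fetuses and 265 and 203 in the lambs, and H3K4me3 of 99.1 and 54.9 against 220, 268 and 290. OCIAD2 had H3K27ac of 180 and 178 against 384 and 356 and H3K4me3 of 155 and 114 against 444, 439 and 458. IFI44L, a gene induced by interferon, had H3K27ac of 60.2 and 83.8 against 168 and 132. The largest joint losses were an unnamed gene, ENSOARG00000015924, and TOB1, AGA, CPEB2 and CSNK1A1. At TOB1, an inhibitor of cell proliferation, H3K27ac was 404 and 551 in the fetuses and 215 and 234.8 in the lambs, and H3K4me3 was 921 and 2480 against 697, 659 and 577. At CSNK1A1, a casein kinase, H3K27ac was 633 and 694 against 280.6 and 286. The H3K4me3 call was lost without fetus 2, lamb 2 or lamb 3 at all 5 of the joint losses, and without fetus 2 their changes were -0.24 to -0.59. It was lost without lamb 3 at all 5 of the joint gains and without lamb 2 at all but OCIAD2.

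**Figure D5:**
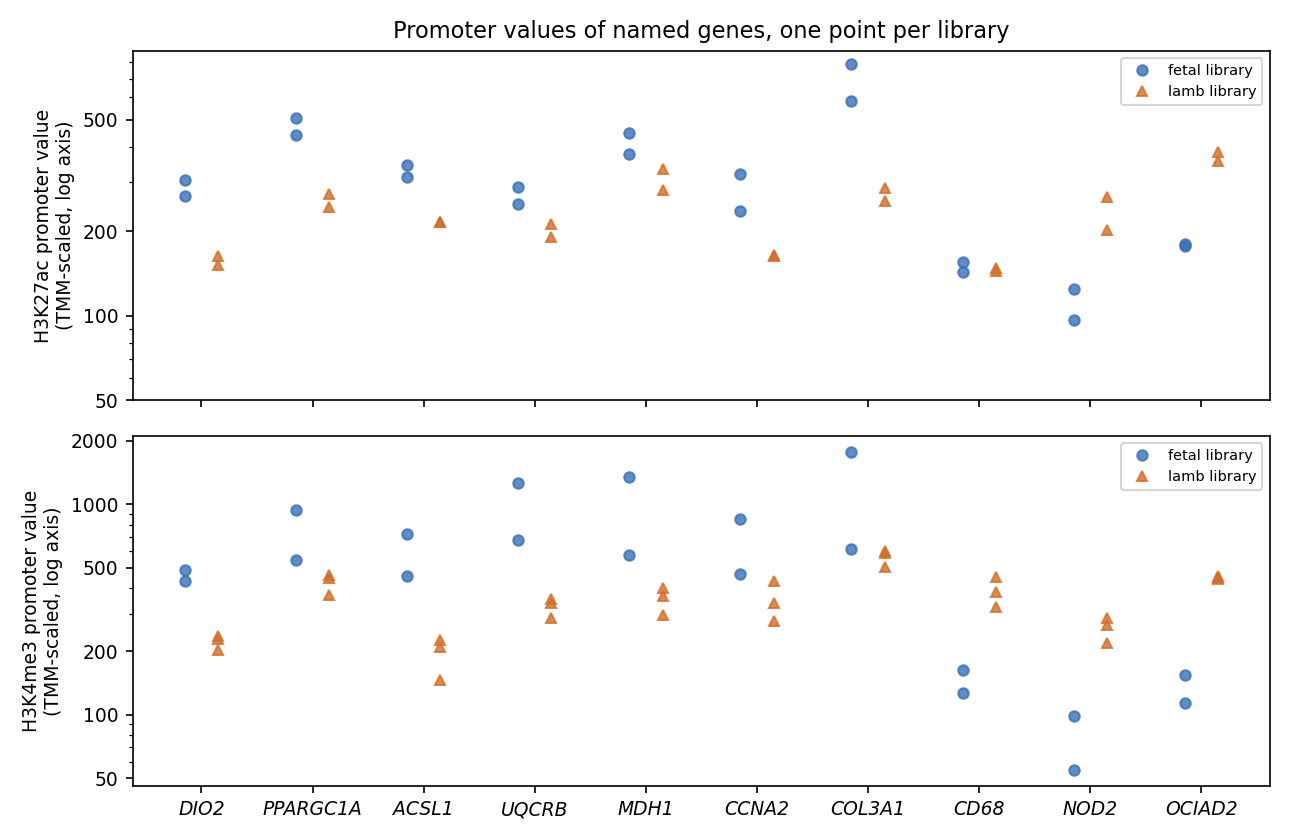
Promoter values of H3K27ac (top) and H3K4me3 (bottom) on log axes for 10 genes listed for both marks and not for H3K27me3, with a point for each fetal (circle) and lamb (triangle) library. At COL3A1 the fetal H3K4me3 values of 612 and 1771 lie far apart, and at CD68 H3K4me3 is higher in all lambs while the H3K27ac values of the stages overlap.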

How the data were processed

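The authors deposited raw read counts per peak region for each mark, per the file headers, and promoter values that are scaled signal, not counts, as their fixed step in each library shows. Reads of 50 bp from native chromatin of about 150 bp were mapped to Oar_v3.1 in CLC Genomics Workbench, per the labels' protocols and design text. The submitters' processing notes also name MACS, bedtools 2.19.0 and edgeR. No source used here says whether peaks were called per sample or on pooled samples. Library totals in the peak tables were 34871674 to 44096535 reads for H3K27ac and 12482468 to 58333449 for H3K4me3. The header of the H3K27ac p-value column names H3K27me3, and no deposited p-value was used.

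Here regions were intersected by position, and edgeR 4.0.16 (quasi-likelihood, TMM, filterByExpr) was fitted to each whole count table and, for the interaction, to all 33917 pairs. Promoters were fitted with limma 3.58.1 on log2(value + 1). DESeq2 1.42.0, other scalings, filters, overlaps, a replicate block and each library left out were alternatives. In simulated H3K27ac counts of 87272 regions, 64% of the 50 regions set to a log2 change of -1 and 100% of those set to -2 were recovered. The simulation used a single fixed dispersion without differences between animals. Changes were set only in regions with a mean of at least 100 reads, so these shares do not give the sensitivity in the real libraries. The members and lists were chosen with earlier results of these data known. Named regions are the 5 largest called gains and losses per mark without overlap between stages and with 100 reads in each library of the higher stage, the 4 largest joint changes each way by the smaller of the 2 changes, up to 3 interactions each way, and the 4 longest and 4 highest. Named genes are those called in both marks in each list, otherwise up to 4 called in 1 mark, PPARGC1A and DIO2, and the 5 largest joint changes each way. Other names, given where a count was 5 or fewer, were chosen after their values were seen. Replicates are different animals, and the labels tie no fetus to a lamb. Results for a few genes are not reported here.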

Additional observations from a re-analysis of the deposited data

Results flagged for a closer look

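At chr2:233972251-233974200 the lamb minus fetal change of H3K27ac exceeded that of H3K4me3 by 2.62 on the log2 scale (edgeR interaction, adjusted p = 0.0334). It was the only pair to pass that test with libraries treated as independent. With the animal as a block, 28 pairs passed. H3K4me3 was lower in all 3 lambs than in both fetuses, and H3K27ac overlapped between the stages. The call was lost with table totals (difference 2.51) and when any 1 lamb was left out.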

How the results depend on the processing

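Each group held 2 or 3 animals, and counts moved with the libraries, the scaling and the tool. For H3K27ac at members, the replicate block gave 7628 lower and 2534 higher, table totals 1324 higher, and the median was -0.050 with cyclic loess and -0.025 with table totals. Leaving out a library gave 1216 to 7788 lower and 42 to 4332 higher. For H3K4me3 at partners, lower and higher counts were 9 and 2 with DESeq2's size factors, 20 and 9 with the replicate block (without lamb 3), 3257 and 83 with DESeq2, 0 and 0 with cyclic loess, 18 and 2 with a mean of at least 100 reads, and 0 and 0 without lambs 2 and 3 together. Higher partners were 12 with table totals and 2 at least 5 kb from H3K27me3, and the median with table totals was -0.032. Leaving out a library gave 0 to 6588 lower, 0 to 2923 higher and medians of -0.36 to 0.073, the last without fetus 2, where the direction reversed. The interaction called 13 members one way and 12 the other with the replicate block, 0 and 0 with table totals, and 0 to 420 and 0 to 1278 with an animal left out. Both marks were called higher at 5 members with table totals, 0 with cyclic loess, 24 with DESeq2, 7 with the replicate block and 0 to 543 with an animal left out. Both were called lower at 12 with DESeq2's size factors, 0 with cyclic loess, 1080 with DESeq2 and 0 to 3335 with an animal left out, and in opposite directions at 6 with DESeq2 and 0 to 286 with an animal left out. For H3K27ac promoters the replicate block gave 661 and table totals 675 higher, and leaving out a library gave 32 to 1092 higher and 938 to 2528 lower. For H3K4me3 promoters the replicate block left 1 higher and 0 lower, and leaving out a library gave 2 to 789 higher and 4 to 2755 lower. The cause of these shifts was not tested.

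Some named values changed sign. With cyclic loess H3K27ac was 0.19 at chr12:43103301-43139100, 0.061 at chr5:58290901-58327650 and 0.17 at chr7:77100701-77131100, and H3K4me3 was 0.76 at chr11:39035301-39036450. At that last member H3K4me3 ran from -0.47 to 0.044 with a library left out and was 0.17 without lambs 2 and 3 together. At chr13:61278101-61279700 H3K27ac was 0.045 with table totals and ran from -0.29 to 0.31 with a library left out. H3K4me3 at chr2:222779201-222780300 ran from -0.68 to 0.28 with a library left out. Promoter H3K27ac of CD68 was 0.060 with table totals and ran from -0.0748 to 0.0260 with a library left out. With a library left out, promoter H3K4me3 ran from -0.89 to 0.40 at EMCN, from -1.07 to 0.63 at TEK and from -0.091 to 1.18 at MYL1.

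Same-numbered samples of the stages are different animals. Their deviations from the group means correlated by 0.27 for H3K27ac and by 0.07 and 0.11 for H3K4me3. The block by sample number, used within a mark, is therefore given as an alternative only. The block used for the interaction is by animal and joins the marks of the same animal. Members at an overlap of 50% gave counts within 1.5 times those reported.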

Other observations

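Members that fell in H3K27ac lay near others that did. Within 10 kb of the 4570 lower members there were 3556 neighbouring members, of which 33.5% were also lower and 0.309% were higher. Within 10 kb of the 726 higher members, 13.4% of the 536 neighbours were higher and 2.05% were lower. Over all members 14.6% were lower and 2.32% higher, and over all H3K27ac regions 9.44% and 4.48%. The excess over these shares was not tested. Neighbours can share an H3K4me3 partner and are not independent.

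Distance from Polycomb chromatin went with both marks. In the 4 groups of members by distance to the nearest H3K27me3 region, the share lower in H3K27ac was 11.1%, 12.8%, 14.9% and 19.6% from nearest to farthest, and the median H3K4me3 change was -0.59, -0.44, -0.27 and -0.10. Members far from H3K27me3 were also longer (median 2250 bp against 1450 bp) and had sparser partners (4.61 against 7.72 CPM per kb), and the part of these in the trend was not tested. By chromosome, the share of members lower in H3K27ac ran from 9.52% on chromosome 14 to 21.5% on chromosome 16. The members of chromosome 14 had the lowest median H3K4me3 change (-0.64) and those of chromosome 16 the highest (-0.10).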
